A study of Arabidopsis thaliana with 24 samples.

Results

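The 60 genes described here encode proteins of the cytosolic ribosome of Arabidopsis thaliana. They are 60 listed loci among the 37686 loci of the deposited tables, on chromosomes 1 (27 genes), 2 (22 genes) and 3 (11 genes), and all 60 were found in both tables. Of them 17 encode small subunit proteins and 43 large subunit proteins, 3 of which (RPP0A, RPP0B and RPP2A) belong to the stalk. The TAIR10.1 annotation describes all 60 as structural constituents of the ribosome. Its notes state the subunit for 37 of them, 14 small and 23 large, with 0 contradictions to the grouping used here. Names follow the RPL, RPS and RPP convention of the field, and 9 of the 60 names stand in the reference. The genes belong to 45 protein families, and 14 families have 2 or 3 members in the set.

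The ribosome joins amino acids into proteins. Its small subunit reads the messenger RNA and its large subunit forms the peptide bond, while the stalk of the large subunit recruits the elongation factors that drive each step. In plants each ribosomal protein is encoded by several similar genes (paralogs), and ribosomal protein genes are known to be highly expressed in growing and dividing tissue.

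RNA was measured by sequencing in whole leaf explants, the detached blades from which Arabidopsis can regenerate roots. The first pair of rosette leaves was taken from seedlings grown for 12 d at 22 °C with 16 h light and 8 h dark on medium with 1% sucrose, and the blades were then kept on B5 medium without sucrose under 24 h light. The mutant explants carried coi1-2, an allele of the jasmonate receptor gene COI1, with 16 libraries, 2 at each of 8 times: t0, 10 and 30 min, and 1, 2, 4, 8 and 12 h from detachment on. The wild type (WT) was Col-0, with 8 labelled libraries, 1 at each time. The WT table holds 8 further columns, 1 for each time and numbered as replicate 2, that match none of the sample labels used here, and they were not analysed. Nothing in the labels says whether the 2 coi1 libraries of a time came from separate plants, so p-values measure the spread between these libraries, which may be technical. Time after detachment, time of day, the change to continuous light and the loss of sucrose cannot be told apart, and in whole explants neither can fewer cells of a type and less RNA per cell.

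Values are TPM, transcript abundance per length with the library total set to 1000000, so levels of different genes can be compared. TPM keeps no record of read depth, so values carry no counting interval. The number of genes with 1 TPM or more was 17019 to 17840 per library. COI1 itself had 13.1 to 23.3 TPM in coi1 libraries (median 16.2), against 8.65 to 25.9 TPM in WT libraries (median 16.1), so its RNA level does not separate the genotypes. The 2 coi1 libraries of 30 min stood apart from each other: all 60 genes were higher in replicate 2, by a median of 0.89 on the log2 scale, where the median of all genes was -0.25. At 8 h and 12 h all 60 were lower in replicate 2, by a median of 0.43 at each time, while the pairs of t0 and 4 h differed by a root mean square of 0.09 and 0.10. Results that rest on the 30 min libraries are given with and without them.

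Together the 60 genes held between 1.00% and 2.78% of the TPM of a library. Averaged over the 24 libraries, small subunit genes had a median of 208 TPM with an interquartile range of 142 to 320 TPM. Large subunit genes had a median of 266.5 TPM with an interquartile range of 189 to 394 TPM. The most abundant small subunit gene was RPS3aA, whose protein lies near the exit of the messenger RNA channel, with a mean of 504 TPM. The most abundant large subunit gene was RPL19A, whose protein takes part in a bridge between the subunits, with a mean of 713 TPM. The least abundant were RPS2A with 38.7 TPM, for a protein at the entry of that channel, and the stalk gene RPP0A with 6.38 TPM. At 4 h RPS3aA had 727 and 738 TPM, against 340 and 375 TPM at 1 h in coi1 (1.03 on the log2(TPM + 1) scale, SE 0.26, limma adjusted p = 0.015). RPL19A had 901 and 918 TPM at 4 h, against 549 and 542 TPM at 1 h (0.74, SE 0.22, limma adjusted p = 0.032). In both genes the libraries of these times did not overlap.

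The summed level of the 60 genes was low at 10 min and 1 h and high at 4 h and 8 h in coi1. In coi1 replicates 1 and 2 the sum was 16512 and 17032 TPM at t0. It was 11456 and 13718 TPM at 10 min, and 12065 and 22064 TPM at 30 min. It was 11461 and 12532 TPM at 1 h, 16496 and 14130 TPM at 2 h, and 22964 and 23875 TPM at 4 h. Both 4 h libraries thus lay above both 1 h libraries. At 8 h the sum was 27780 and 20869 TPM, and at 12 h it was 19996 and 14807 TPM. The WT sum stayed between 12468 and 14621 TPM up to 2 h, reached 23181 TPM at 4 h, and was 16978 TPM at 8 h and 10009 TPM at 12 h. Of the 24 libraries, WT 12 h had the lowest sum and coi1 8 h replicate 1 the highest.

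**Figure D1:**
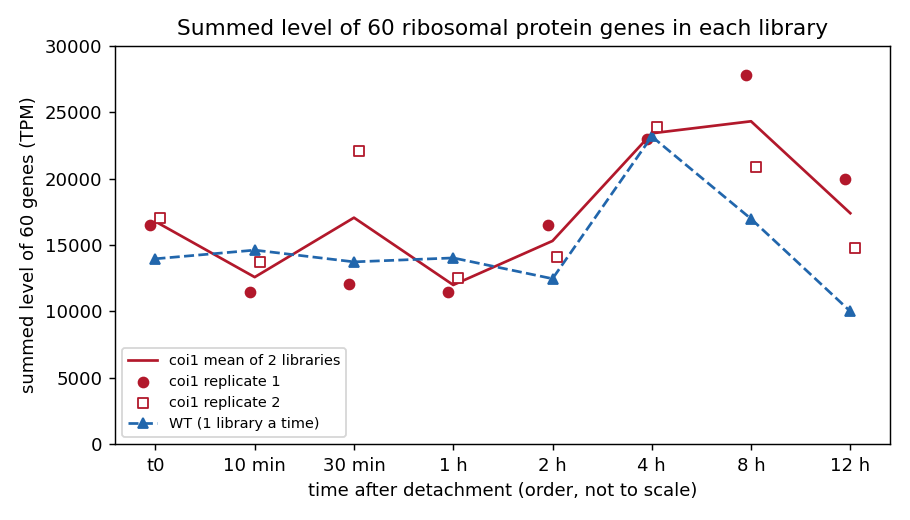
Summed TPM of the 60 ribosomal protein genes (vertical axis, from 0) in each library against time after detachment, in order and not to scale. Points are single libraries, the solid line is the mean of the 2 coi1 libraries and the dashed line joins the single WT libraries. Both genotypes are high at 4 h, where the 3 libraries have 22964 to 23875 TPM. Both coi1 libraries lie above the WT library at t0, 2 h, 8 h and 12 h.

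Of the 9 comparisons of single coi1 times made here, 4 h against 1 h had the most calls among the 60 genes. It uses neither the t0 nor the 30 min libraries for its means. By time means, 1 h was the lowest coi1 time for 37 of the 60 genes and 4 h the highest for 31. In coi1, 50 of the 60 genes rose at 4 h over 1 h (limma on log2(TPM + 1), Benjamini-Hochberg adjusted p below 0.05), 13 of 17 for the small and 37 of 43 for the large subunit. None fell. Of all 19323 genes tested, 17.8% rose in this comparison. The median difference of the 60 genes was 1.00 on the log2(TPM + 1) scale, with single genes between 0.44 and 1.68, against a median of 0.08 over all genes tested. In all 60 genes both 4 h libraries were higher than both 1 h libraries, which held for 41.8% of all genes tested.

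Among large subunit genes the 3 with the widest course in coi1 were RPL7C, RPL6A and RPL12A, chosen by the range of their time means and so no independent support for the change. RPL12A encodes a protein at the base of the stalk. RPL7C (AT2G44120) had 187 and 197 TPM at 4 h, against 51.4 and 67.8 TPM at 1 h in coi1, a difference of 1.68 (SE 0.32, adjusted p = 0.0036). RPL12A (AT2G37190) had 371 and 393 TPM at 4 h, against 134 and 148 TPM at 1 h, a difference of 1.43 (SE 0.28, adjusted p = 0.0045). RPL6A (AT1G18540) had 295 and 313 TPM at 4 h, against 107 and 125 TPM at 1 h, a difference of 1.39 (SE 0.34, adjusted p = 0.014). In none of these genes did the libraries of the 2 times overlap.

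Among small subunit genes RPS12C and RPS14A had wide courses and were chosen in the same way. The protein of the RPS14 family sits on the platform of the small subunit, along the path of the messenger RNA. RPS12C (AT2G32060) had 265 and 293 TPM at 4 h, against 112 and 121 TPM at 1 h in coi1, a difference of 1.25 (SE 0.31, adjusted p = 0.014). RPS14A (AT2G36160) had 352 and 379 TPM at 4 h, against 150 and 168 TPM at 1 h, a difference of 1.2 (SE 0.34, adjusted p = 0.025).

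The genes with the flattest courses in coi1 show the other end of the range. RPS16A (AT2G09990), for a protein that reaches the decoding centre, had 92.5 and 106 TPM at 4 h, against 70.2 and 75.7 TPM at 1 h, a difference of 0.44 that did not pass the test (SE 0.22, adjusted p = 0.16). RPL34B had 365 and 374 TPM at 4 h, against 230 and 253 TPM at 1 h, a difference of 0.61 that did not pass either (SE 0.23, adjusted p = 0.079). RPL6B and RPS7A did pass. RPL6B had 221 and 210 TPM at 4 h, against 135 and 146 TPM at 1 h (0.61, SE 0.17, adjusted p = 0.022). RPS7A had 169 and 183 TPM at 4 h, against 103 and 112 TPM at 1 h (0.71, SE 0.20, adjusted p = 0.027). RPP0A, with the widest range of all 60, was left out of that choice because it averaged under 10 TPM. The range of the coi1 time means over the 8 times ran from 0.54 in RPS16A to 1.93 in RPP0A. Its median was 1.07 for the 60 genes, 1.04 for all genes tested and 1.16 for 1485 other genes of at least 100 TPM.

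The count of 50 moved with the libraries in the fit. Median-of-ratios rescaling left 25, where 15.4% of all genes rose. With only the 4 libraries compared all 60 rose, where 22.6% of all genes did. With both 30 min libraries out of the fit 59 of 60 genes rose, where 26.7% of all genes did. That choice was made after seeing the data. Leaving out 1 of the 4 libraries leaves a time with 1 library. The count then fell below 50 with the 30 min libraries in the fit and stayed above 50 without them.

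**Figure D2:**
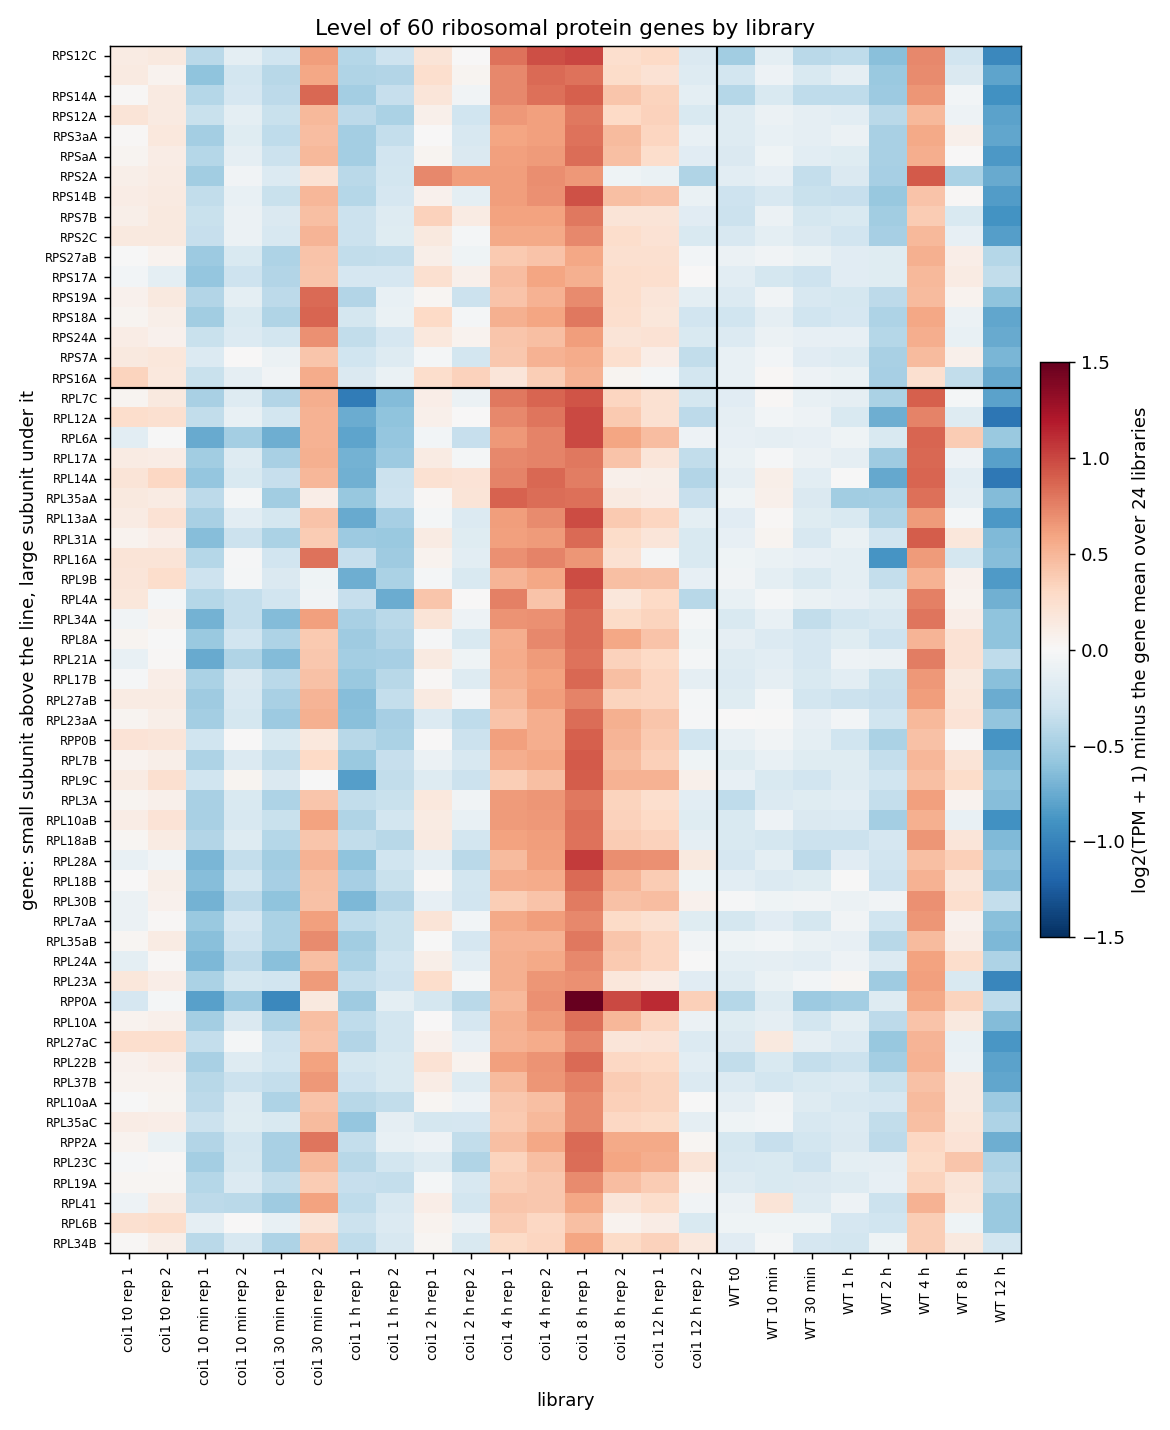
Level of each of the 60 genes (rows, 1 of them without a name, small subunit above the line, large subunit under it, ordered by the 4 h minus 1 h difference) in each library (columns, coi1 left of WT), as log2(TPM + 1) minus the gene's mean over 24 libraries. Nearly all rows change colour together from library to library: they are red in coi1 4 h and 8 h and WT 4 h and blue in WT 12 h, and the 2 coi1 30 min libraries differ in all 60 genes.

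The upstream sequences of genes with wide courses, and of families whose members differ most in level, are shown where the 250 bases before the annotated start overlap no other annotated gene (TAIR10.1). For 33 of the 60 genes this window overlaps another annotated gene. Capitals mark the telo box AAACCCTA and the site II letters TGGGCC and TGGGCT, read on both strands (TAGGGTTT, GGCCCA and AGCCCA), motifs known from promoters of plant ribosomal protein genes. RPL6A lies at chr1:6378581-6378830 (minus strand), RPL7C at chr2:18251157-18251406 (minus strand) and RPL35aB at chr1:15652543-15652792 (minus strand), where these coordinates are those of the windows. RPS2A has none of these letters, with its window at chr1:21688685-21688934 (plus strand).
RPL6A: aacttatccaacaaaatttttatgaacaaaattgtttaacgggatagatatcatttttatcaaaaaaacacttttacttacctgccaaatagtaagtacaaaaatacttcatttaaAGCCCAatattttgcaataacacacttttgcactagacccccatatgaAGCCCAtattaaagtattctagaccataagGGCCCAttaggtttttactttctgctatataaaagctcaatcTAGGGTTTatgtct
RPL7C: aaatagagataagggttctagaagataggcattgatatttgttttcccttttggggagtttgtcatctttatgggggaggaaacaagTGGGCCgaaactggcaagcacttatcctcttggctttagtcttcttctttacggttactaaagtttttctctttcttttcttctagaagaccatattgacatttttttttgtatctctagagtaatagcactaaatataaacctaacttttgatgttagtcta
RPL35aB: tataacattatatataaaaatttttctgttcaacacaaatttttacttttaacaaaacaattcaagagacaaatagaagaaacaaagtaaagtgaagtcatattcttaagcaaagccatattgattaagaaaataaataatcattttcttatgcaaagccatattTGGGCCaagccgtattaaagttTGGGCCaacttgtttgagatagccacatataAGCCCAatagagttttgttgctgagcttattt
RPS2A: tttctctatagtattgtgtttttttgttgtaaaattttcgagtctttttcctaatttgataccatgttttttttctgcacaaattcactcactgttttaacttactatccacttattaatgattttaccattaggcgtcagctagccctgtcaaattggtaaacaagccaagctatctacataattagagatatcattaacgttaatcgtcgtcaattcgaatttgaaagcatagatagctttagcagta

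The RPL6A window holds 1 telo box and 3 site II matches, and the RPL35aB window 3 site II matches. In the set as a whole 38 of 60 windows (63.3%) held TGGGCC or TGGGCT, against 19.2% of the windows of 27443 protein-coding genes. The telo box stood in 11 of 60 windows (18.3%), against 4.49% of all. In 138 other cytosolic ribosomal protein genes the shares were 71.7% and 20.3%, and in genes tested in coi1 23.2% and 3.64%. In a window that also takes 50 bases after the start, a choice made with the data known, the telo box stood in 26 of 60 (43.3%), against 6.22% of all. The letters TATAAA stood in 31 of 60 (51.7%), against 47.3% of all. By subunit, site II letters stood in 9 of 17 small and 29 of 43 large subunit windows. Genes with site II letters had a median 4 h minus 1 h difference of 1.02 in coi1 (38 genes), and those without had 0.95 (22 genes), with interquartile ranges that overlap. Matches of letters are a description and not bound sites.

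Relative to t0 all 60 genes had negative differences in coi1 at 10 min and at 1 h. At 10 min the median difference was -0.42, and in all 60 genes both libraries were lower than both t0 libraries, which held for 36.9% of all genes tested. Yet 0 genes passed the limma test, where 0.533% of all genes did, and 1 gene had an unadjusted p below 0.05. At 1 h the median was -0.47, against -0.17 over all genes tested. Here 6 of 60 genes fell, all of the large subunit, where 20.5% of all genes fell. They were RPL7C, RPL12A, RPL9B, RPL13aA, RPL9C and RPL6B, and 11 had an unadjusted p below 0.05. In 59 of 60 genes both 1 h libraries were lower than both t0 libraries, which held for 45.4% of all genes.

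The largest of these declines was that of RPL7C, with 51.4 and 67.8 TPM at 1 h, against 110 and 119 TPM at t0 in coi1 (-0.94, SE 0.32, adjusted p = 0.046). RPL12A had 134 and 148 TPM at 1 h, against 271 and 266 TPM at t0 (-0.93, SE 0.28, adjusted p = 0.031). RPL9C, in which mutation is known to alter leaf polarity, had 263 and 361 TPM at 1 h, against 508 and 552 TPM at t0 (-0.78, SE 0.21, adjusted p = 0.019). RPL9B and RPL9C share 99.2% of their coding sequence and encode the same protein in the reference, so reads between them may have been split. RPL6B, the smallest of the 6, had 135 and 146 TPM at 1 h, against 199 and 203 TPM at t0 (-0.51, SE 0.17, adjusted p = 0.042). In these 4 genes the 1 h and t0 libraries did not overlap. Cell type markers moved at the same time: 4 of 6 mesophyll markers rose in coi1 at 1 h relative to t0, where 10.7% of all genes rose. Of 9 dividing cell markers 4 fell, where 20.5% of all genes fell. In WT, with 1 library a side, the medians at 1 h minus t0 were -1.51 for mesophyll and -0.60 for dividing cell markers. That of the 60 genes was -0.001. The part of these markers in the result was not tested. The call of 6 genes is unstable: the count was 0 after rescaling, where 14.2% of all genes fell. It was 7 with only the 4 libraries compared, where 10.3% of all genes fell. It was 26 with the 30 min libraries out of the fit, where 31.3% of all genes fell, and it was lower than 6 with 1 of the 4 libraries left out.

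At 30 min the median in coi1 was -0.03 with 0 genes called by limma (0 at unadjusted p below 0.05), where 9.23% of all genes were called. Both 30 min libraries were lower than both t0 libraries in 6 genes and higher in 0, where these held for 34.7% and 9.97% of all genes. The replicates disagreed: the median was 0.40 without replicate 1, with 9 genes called higher (8.4% of all genes were), and -0.48 without replicate 2. At 2 h the median was -0.13 and 0 genes were called (1 at unadjusted p below 0.05), where 25.6% of all genes were called. Both 2 h libraries were lower than both t0 libraries in 25 genes and higher in 2, where these held for 32.9% and 35.1% of all genes. RPS2A had the largest difference at 2 h, with 60.9 and 57.1 TPM, against 38.8 and 40.0 TPM at t0, a difference of 0.57 that did not pass the test (SE 0.24, adjusted p = 0.11).

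At 4 h all 60 differences from t0 in coi1 were positive, with a median of 0.51, against -0.05 over all genes tested. In 59 of the 60 both 4 h libraries were higher than both t0 libraries, which held for 30.9% of all genes. None passed the limma test over the 16 libraries (9 at unadjusted p below 0.05), where 14% of all genes were called. In a fit of the 4 libraries alone 53 genes rose, where 13.5% of all genes rose, and without the 30 min libraries 17 rose, where 13.3% of all did.

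At 8 h the median was 0.50, again with all 60 differences positive, against 0.11 over all genes tested. In 53 genes both 8 h libraries were higher than both t0 libraries, which held for 40.8% of all genes. RPP0A alone rose, where 10.9% of all genes rose and 14.6% were called in either direction (12 of the 60 at unadjusted p below 0.05). It encodes the less abundant form of the protein that anchors the stalk. RPP0A had 18 and 12.2 TPM at 8 h, against 4.58 and 5.54 TPM at t0 in coi1, a difference of 1.39 (SE 0.36, adjusted p = 0.026). It was no longer called after rescaling, or without 8 h replicate 1 or either t0 library. Without the 30 min libraries 18 genes rose at 8 h, where 19.6% of all genes did.

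By 12 h the median difference from t0 was 0.00 in coi1, with 30 genes positive and 30 negative, and 0 genes passed (1 at unadjusted p below 0.05), where 21.7% of all genes were called. Both 12 h libraries were higher than both t0 libraries in 7 genes and lower in 9, where these held for 40.5% and 25.1% of all genes. Against 8 h, all 60 differences at 12 h were negative, with a median of -0.51. None passed the limma test (10 at unadjusted p below 0.05), where 0.124% of all genes were called. Both 12 h libraries were lower than both 8 h libraries in 47 genes, which held for 27.3% of all genes. At 8 h and at 12 h replicate 2 lay under replicate 1 in all 60 genes. From 8 h to 12 h the sum fell from 27780 to 19996 TPM in replicate 1 and from 20869 to 14807 TPM in replicate 2. The main fit did not pair libraries by number. With replicate number as a block 0 of the 60 genes passed too, where 0.0932% of all genes were called.

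Over all times in coi1, 30 of 60 genes varied by the F test, 5 of 17 for the small and 25 of 43 for the large subunit, where 58.9% of all genes did. With the 30 min libraries out of the fit all 60 varied, where 75.9% of all genes did, and after rescaling 4 did, where 54.3% of all genes did. Rescaling also changed the median at 30 min to 0.17 and at 12 h to -0.15, so no direction is given for those times. The median of all genes tested lay at -0.17 at 1 h, -0.18 at 30 min and 0.11 at 8 h. The members' medians stayed on the same side of 0 under rescaling at the other times, with -0.29 for 10 min, -0.28 for 1 h, -0.14 for 2 h, 0.60 for 4 h and 0.36 for 8 h.

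Medians of small and large subunit genes had the same sign in the comparisons given next. The median 4 h minus 1 h difference in coi1 was 0.86 for small and 1.01 for large subunit genes, with interquartile ranges of 0.75 to 1.03 and 0.91 to 1.13. At 8 h minus t0 it was 0.39 for small and 0.52 for large, and at 1 h minus t0 it was -0.41 for small and -0.51 for large. At 4 h minus t0 they were 0.50 for small and 0.51 for large. The small minus large difference was thus -0.14 at 4 h minus 1 h, and between -0.16 and -0.11 with 1 of the 4 libraries left out. It was -0.19 with 1 gene per family. The small minus large difference of median log2 levels in single coi1 libraries varied between replicates with an SD of 0.08. In WT, where 1 library of each time was analysed, the medians at 4 h minus t0 were 0.73 for both subunits.

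**Figure D3:**
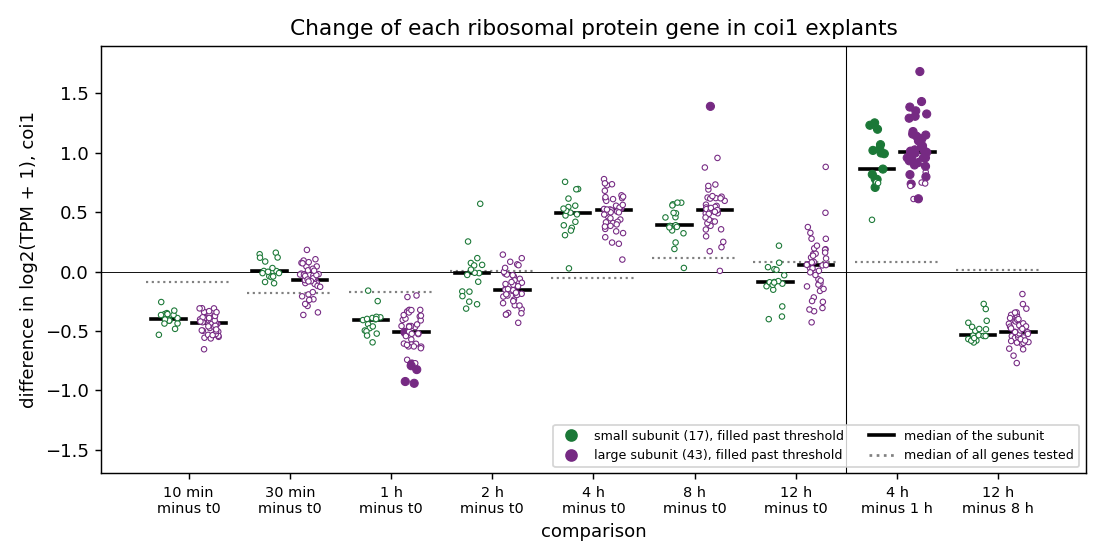
Difference in log2(TPM + 1) of each gene in coi1 explants for 7 times minus t0 and for 4 h minus 1 h and 12 h minus 8 h, with small subunit genes left of large subunit genes. Filled points passed the test, black bars are subunit medians and dotted lines the median of all genes tested: the subunits overlap in each comparison, and the points lie above 1 h by a median of 0.86 and 1.01 at 4 h.

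Paralogs of a family differed widely in level in some families. RPP0B averaged 380 TPM and RPP0A 6.38 TPM over the 24 libraries, a ratio of 59.6. RPP0B had 679 and 518 TPM at 8 h, against 422 and 414 TPM at t0 in coi1 (0.50, SE 0.24, adjusted p = 0.20). The proteins of this pair share the stalk position, and their coding sequences are 77.0% identical. In the L35a family RPL35aB averaged 392 TPM and RPL35aA 37.1 TPM, a ratio of 10.6. In the S2 family RPS2C averaged 366 TPM and RPS2A 38.7 TPM, a ratio of 9.46. At the other end RPS12A and RPS12C each averaged 160.5 TPM over the 24 libraries.

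All members of the L35a and S2 families rose at 4 h over 1 h in coi1. RPL35aA had 65.8 and 63.7 TPM at 4 h, against 23.3 and 28.1 TPM at 1 h (1.31, SE 0.27, adjusted p = 0.0052). RPL35aC had 201 and 216 TPM at 4 h, against 103 and 139 TPM at 1 h (0.80, SE 0.24, adjusted p = 0.034). RPL35aB had 540 and 541 TPM at 4 h, against 261 and 299 TPM at 1 h (0.95, SE 0.32, adjusted p = 0.047). The order of levels within the family was the same at both times. RPS2A had 57.0 and 59.7 TPM at 4 h, against 27.5 and 30.0 TPM at 1 h (1.00, SE 0.24, adjusted p = 0.013). RPS2C had 525 and 523 TPM at 4 h, against 282 and 312 TPM at 1 h (0.82, SE 0.25, adjusted p = 0.033). Of the P0 pair RPP0B passed (1.02, SE 0.24, adjusted p = 0.010), and RPP0A did not (0.93, SE 0.36, adjusted p = 0.079). Whether paralogs differed in their change was not tested.

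The L6 pair holds both a wide and a flat course. RPL6A had 373 and 283 TPM at 8 h, against 167 and 187 TPM at t0 in coi1 (0.88, SE 0.34, adjusted p = 0.12). RPL6B had 232 and 175 TPM at 8 h, against 199 and 203 TPM at t0 (0.01, SE 0.17, adjusted p = 0.99). The coding sequences of the 16 paralog pairs in the set are 74.9% to 99.2% identical, and how reads shared by paralogs were assigned was not tested.

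**Figure D4:**
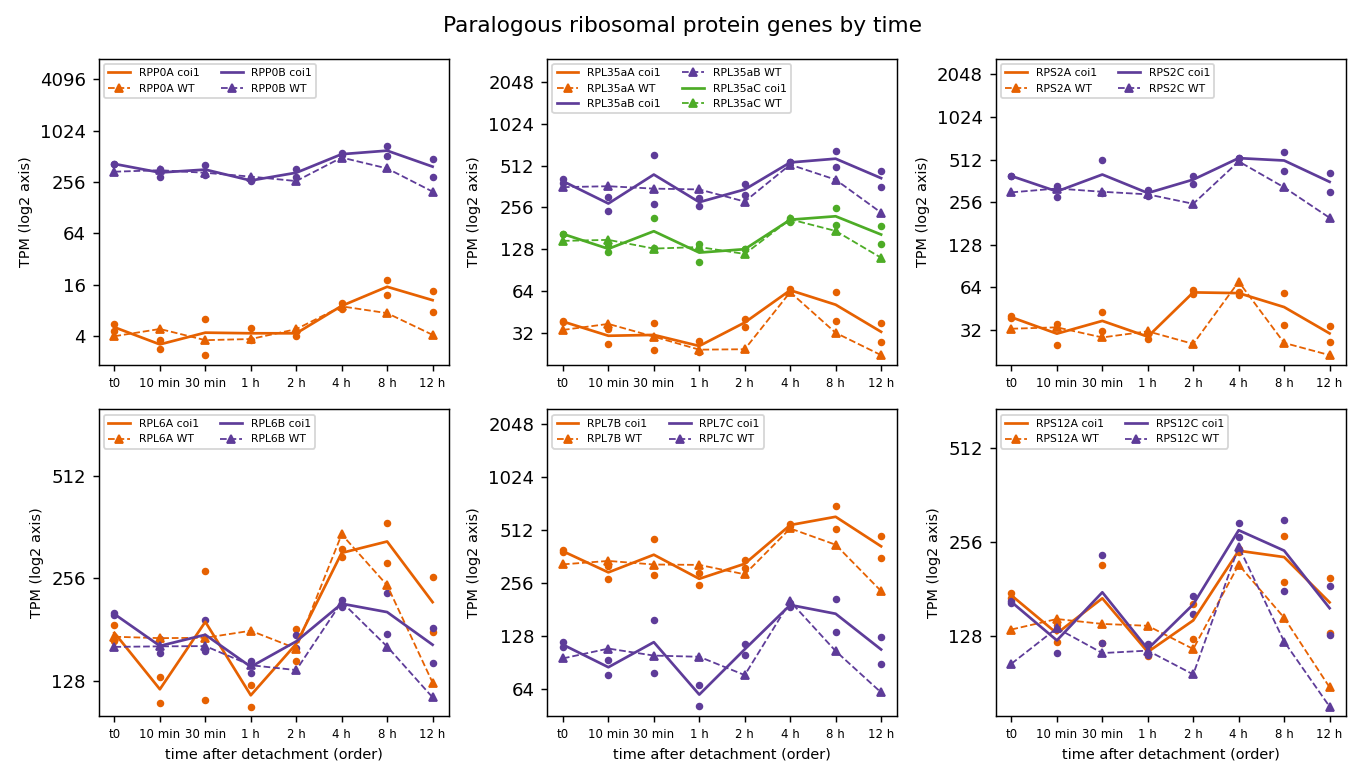
TPM (log2 axis) of the members of 6 paralog families against time after detachment in order. Solid lines join the means of the 2 coi1 libraries, dots are those libraries and dashed lines with triangles join the single WT libraries: levels differ by up to a ratio of 59.6 within the P0 pair. Some lines of a family differ in shape, such as RPP0A beside RPP0B at 8 h, RPS2A beside RPS2C at 2 h and RPL6B beside RPL6A.

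In WT 1 labelled library of each time was analysed and the columns numbered as replicate 2 were not, so differences between single times have no test here. A spline fit by limma over the 8 libraries called 0 of the 60 genes (0 at unadjusted p below 0.05) and 0% of all genes. At 4 h all 60 genes were higher than at t0, by a median of 0.73, and 47 of them by at least 1.5-fold, where 18.7% of all genes were. RPL7C had 201 TPM at 4 h, against 95.7 TPM at t0 in WT. RPS12C had 247 TPM at 4 h, against 104 TPM at t0. For 59 of the 60 genes 4 h was the highest WT time, and for 58 of them 12 h was the lowest.

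At 12 h the WT median was -0.50 relative to t0, with 59 of the 60 differences negative and 19 genes lower by at least 1.5-fold, where 15.8% of all genes were. RPL12A had 105 TPM at 12 h, against 205 TPM at t0 in WT. The medians at 10 min, 30 min and 1 h lay between -0.03 and 0.08, and after rescaling between 0.14 and 0.24. At 2 h the median was -0.19. At 8 h it was 0.26, with 3 genes higher by at least 1.5-fold, where 14.7% of all genes were.

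Between the genotypes, 5 of 60 genes were higher in coi1 than in WT in a model of genotype and time over all 24 libraries, 4 of the small and 1 of the large subunit, where 3.87% of all genes were higher. None was lower. The median difference was 0.22, with 58 of 60 positive, against -0.05 over all genes. For small subunit genes it was 0.29 and for large subunit genes 0.19. The 5 genes were RPS12C, RPS14B, RPS7B, RPL22B and RPS2C.

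RPS12C had 112 to 301 TPM in the 16 coi1 libraries (median 165 TPM), against 76.2 to 247 TPM in the 8 WT libraries (median 114 TPM), a difference of 0.49 (SE 0.14, adjusted p = 0.033). RPS14B had 227 to 592 TPM in coi1 (median 324 TPM), against 171 to 409 TPM in WT (median 244 TPM), a difference of 0.41 (SE 0.12, adjusted p = 0.035). RPS7B had 178 to 388 TPM in coi1 (median 246 TPM), against 120 to 292 TPM in WT (median 189 TPM), a difference of 0.41 (SE 0.12, adjusted p = 0.034). Over all libraries the ranges of the genotypes overlap in each of these genes. None of the 60 was called with only 1 coi1 replicate number in the fit (where 0.591% or 1.17% of all genes were called), or without the t0 and 30 min libraries (where 7.96% were).

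At single times the 60 genes compared with WT as follows. Both coi1 libraries lay above the WT library in 58 genes at t0, where this held for 24.8% of all genes. They lay below it in 46 genes at 10 min and 44 genes at 1 h, where this held for 41.4% and 48.2% of all genes, and above it in 1 gene at 1 h (32.2% of all genes). At 30 min they lay above it in 9 genes, where 22.7% of all genes did. They lay above it in 50 genes at 2 h (34.2% of all genes) and below it in 3 (51.1% of all genes). At 4 h they lay above it in 26 genes (28.9% of all genes) and below it in 20 (55.9% of all genes). At 8 h and at 12 h they lay above it in all 60 genes, where this held for 47% and 38.1% of all genes. The median coi1 minus WT difference was 0.73 and 0.30 at 8 h and 1.01 and 0.57 at 12 h for coi1 replicates 1 and 2. A single analysed WT library stands behind each of these values. A test of genotype by time course called 0 of 60 genes by limma (0 at unadjusted p below 0.05), where 0.202% of all genes were called.

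**Figure D5:**
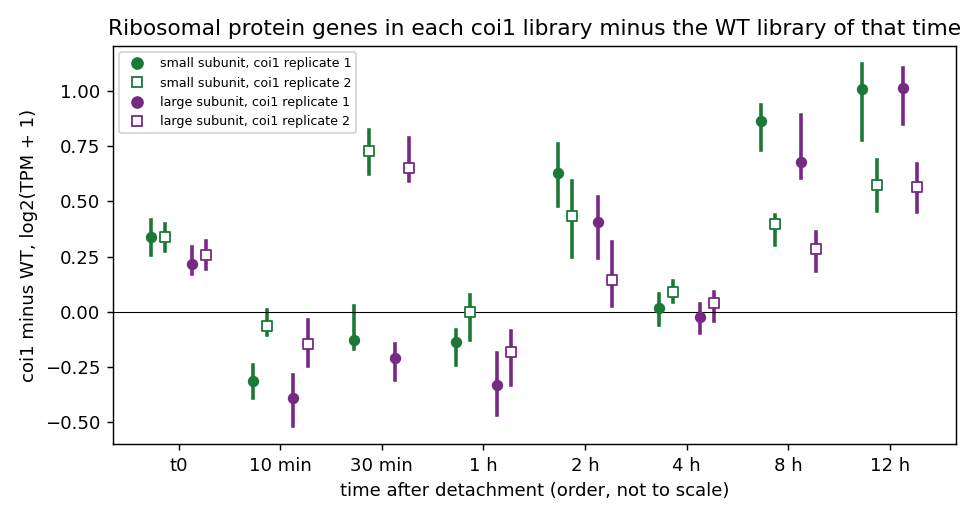
Median (points) and interquartile range (bars) over small and large subunit genes of the difference in log2(TPM + 1) between each coi1 library and the WT library of that time, against time in order. The medians lie under or near 0 at 10 min, 1 h and 4 h and above 0 at t0, 2 h, 8 h and 12 h, and the 2 coi1 replicates of 30 min lie on opposite sides.

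The 134 other cytosolic ribosomal protein genes tested (138 found) were measured in the same libraries. At 4 h over 1 h in coi1 95 of 134 rose, with a median of 0.96, where 17.8% of all genes rose. Of 18 ribosome biogenesis genes, which make and process ribosomal RNA, 17 rose at 4 h over 1 h with a median of 2.37. At 1 h relative to t0 16 of them fell, with a median of -1.23, where 20.5% of all genes fell. Among the biogenesis genes FIB2, which encodes a fibrillarin that methylates ribosomal RNA, rose at 4 h over 1 h by 4.12 (SE 0.53, limma adjusted p = 0.00044). The summed level of the 19 listed biogenesis genes was 1784 and 1829 TPM at 4 h, against 279 and 356 TPM at 1 h in coi1. In WT it was 2149 TPM at 4 h, against 505 TPM at t0.

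Of 11 translation elongation genes 9 rose at 4 h over 1 h in coi1, with a median of 0.90. Of 8 translation initiation genes 3 rose, with a median of 0.50. Of 7 genes of TOR signalling, the kinase pathway that is known to promote ribosome synthesis, 1 rose and 1 fell. In this comparison 17.8% of all genes rose and 9.37% fell. TOR rose by 0.70 (SE 0.23, limma adjusted p = 0.049), and TCP20, a transcription factor, fell by 1.25 (SE 0.28, adjusted p = 0.0088).

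Markers of other cells were set beside these values. At 4 h over 1 h in coi1, 0 of 6 leaf mesophyll, 0 of 9 dividing cell and 0 of 4 guard cell markers passed the test. Of 4 vascular markers 1 rose, where 27.2% of all genes passed and 17.8% rose. The summed dividing cell markers were 49.7 and 46.8 TPM at 4 h, against 28.2 and 56.3 TPM at 1 h. The summed mesophyll markers were 59502 and 55556 TPM at 4 h, against 61572 and 59408 TPM at 1 h. All 6 shoot and root meristem markers lay below 1 TPM in each library, and 4 of the 6 were at 0 in all. In coi1 minus WT 3 of 6 mesophyll markers were higher, with a median of 1.34, where 3.87% of all genes were higher. The summed level of the mesophyll markers was 31999 to 63803 TPM in coi1 libraries and 32951 to 47954 TPM in WT libraries. The part of these markers in the genotype difference of the ribosomal protein genes was not tested.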

How the data were processed

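Total RNA of 24 explant libraries was used. The submitters' processing notes list Trim Galore 0.5.0, STAR 2.7.2b, RSEM 1.3.2 and the TAIR10 build. The annotation version, strand setting and filters are not given in the sources used here. The deposited values are TPM per gene, in 1 table per genotype, and depth is not recoverable from TPM. Each column sums to 1000000 within rounding, and 8 columns of the WT table, numbered as replicate 2 with 1 for each time, matched no sample label and were not used.

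Fits used limma 3.58.1 in R 4.3.3 on log2(TPM + 1) with an intensity trend, for genes that reached 1 TPM in 2 or more of the fitted libraries. A fold change on this scale understates changes of low genes. Adjusted p-values are Benjamini-Hochberg over all genes tested in each comparison (19323 for coi1 times, 19757 for genotype, 18906 for WT), and the threshold was 0.05. The coi1 times share 1 estimate of the spread with 8 residual degrees of freedom. The genotype difference came from a model with genotype and time as factors, and time courses used a natural spline with 3 degrees of freedom (splines 4.3.3). The comparisons with t0 share the t0 libraries. The fits were tested on simulated data.

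The 60 members, the gene lists and the tests were chosen with earlier results of these data known. Members named were, per subunit, the 3 with the largest and the 2 with the smallest range of coi1 time means (at least 10 TPM), the most and the least abundant, the 3 highest and lowest genotype differences and the 2 highest and lowest changes from t0 past the threshold, and the 3 families with the largest ratios of level. The single values of 1 member that this rule names are not reported here. RPL6A at 8 h, RPS2A at 2 h and RPS12A were added after their values were seen. The 1.5-fold count in WT was also chosen after seeing the data.

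Promoter windows were read from the TAIR10.1 genome of RefSeq, in which 37390 of 37686 loci were found (Python 3.11.15, Biopython 1.88). Coding sequences of paralogs were aligned end to end. Replicate numbers were not used to pair the libraries in the main fits. Over 28 pairs of times, the correlation of deviations between same-numbered libraries ran from -0.32 to 0.50, and 7 exceeded 0.1. It was 0.50 for 1 h and 2 h, 0.31 for t0 and 30 min and 0.23 for 8 h and 12 h. For 30 min it was -0.32 with 1 h and -0.30 with 2 h. Whether the numbers pair libraries at some times is therefore not settled.

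Alternatives were a pseudocount of 0.1 TPM, no filter, a filter of 5 TPM, median-of-ratios rescaling, the replicate block, only the 4 libraries compared, each library left out, and a spline with 2 degrees of freedom. Leaving out both 30 min libraries was chosen after seeing the data.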

Additional observations from a re-analysis of the deposited data

How the results depend on the processing

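No alternative run reversed the direction of a call. The count of coi1 genes lower at 1 h than at t0 was 6, where 20.5% of all genes fell (14.2% after rescaling and 20% with the replicate block). It was 0 after median-of-ratios rescaling and 3 with the replicate block. With only the 4 libraries compared it was 7 (10.3% of all genes fell), and with 1 library left out it was lower than 6. With both 30 min libraries left out of the fit, chosen after seeing the data, it was 26 (31.3% of all genes fell). The count higher at 4 h than at 1 h was 50, with 25 after rescaling and 46 with the replicate block. It was 60 with only the 4 libraries compared and 59 with both 30 min libraries left out (22.6% and 26.7% of all genes rose). With 1 of the 4 libraries left out it was lower than 50, and higher than 50 if the 30 min libraries were left out too. Of all genes 17.8% rose at 4 h over 1 h, 15.4% after rescaling and 17.5% with the replicate block. The counts against t0 were 0 at 2 h, 4 h and 12 h and 1 at 8 h (25.6%, 14%, 21.7% and 14.6% of all genes called). With only the 4 libraries compared the 2 h count was 1, the 4 h count 53 and the 8 h count 2 (21.7%, 25.4% and 8.85% of all genes called). With both 30 min libraries left out the 4 h count was 17, the 8 h count 18 and the 12 h count 1 (28.6%, 26.3% and 34.7% of all genes called). After rescaling 12.3% of all genes were called at 8 h. The 8 h count was 0 after rescaling, and with 1 library left out it did not exceed that of the main fit. At 30 min the count ran from 0 to 9 and the median change from -0.48 to 0.40 with 1 library left out. The F test over times called 30 genes, 4 after rescaling, 60 with both 30 min libraries left out, and 20 to 60 when a single t0 or 30 min library was dropped (56.3% to 80.4% of all genes). The genotype count was 5, then 7 after rescaling and 3 with no filter (12.5%, 12.3% and 8.47% of all genes called). It was 0 without coi1 replicate 1 and without coi1 replicate 2 at all times (0.591% and 1.17% of all genes). It was also 0 without the t0 and 30 min libraries (7.96%). The cause of these changes was not tested, beyond the fewer libraries in some fits. Over single genes under all alternatives, 6232 values kept their side of the threshold, 168 newly passed it, 260 no longer did and none reversed. The replicate block moved no other count by over 1.5 times. Small minus large subunit medians moved by less than the SD of their levels between replicates in all alternatives run. Where a fit leaves a time with 1 library, that library is assumed to vary like the others. TPM holds no depth, so what counting error limits is unknown.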

Other observations

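Some cytosolic ribosomal protein genes outside the 60 changed by more than their group. AT5G59240, a ribosomal protein S8e family gene, rose at 4 h over t0 in coi1 by 2.07 (SE 0.30, adjusted p = 0.0020 by limma), and at 8 h by 1.24 (SE 0.30, adjusted p = 0.020). AT5G39850, described in the reference as ribosomal protein S4, rose at 4 h over t0 by 1.47 (SE 0.29, limma adjusted p = 0.0089). It was higher in coi1 than in WT by 0.72 (SE 0.17, limma adjusted p = 0.014). AT4G10450, described in the reference as ribosomal protein L6 family, rose at 4 h over 1 h in coi1 by 2.17 (SE 0.39, limma adjusted p = 0.0026). RPL9B and RPL9C carry the same description, so it does not place AT4G10450 with RPL6A and RPL6B. The reference descriptions need not match the RPL and RPS names used here. Of the 134 tested, 5 rose at 4 h over t0, where 7.39% of all genes did, and 8 were higher in coi1 than in WT, where 3.87% of all genes were. Of the TOR signalling list, PK1, an S6 kinase gene whose product is known to phosphorylate a small subunit protein, was higher at 1 h than at t0 in coi1 by 1.93 (SE 0.48, adjusted p = 0.013).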
